A study of Mus musculus with 2 samples.

Results

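Histone genes were examined in the RNA-Seq data of cultured brown preadipocytes (D0) and of brown adipocytes differentiated from them (D7). Members were the rows of the FPKM table whose symbol begins with Hist1h to Hist4h or H2af, or is H3f3a, H3f3b, H3f3c, H1f0 or H1fx. Of 82 rows that matched, 80 held values, out of 23361 rows with values in all. Of these 80 genes, 68 were replication-dependent genes of the histone clusters and 12 were replacement variants. The Hist1 cluster on chromosome 13 held 54 of them, the Hist2 cluster on chromosome 3 held 10, the Hist3 group on chromosome 11 held 3, 1 of them the pseudogene Hist3h2bb-ps, and Hist4h4 lies on chromosome 6. The transcripts annotated for 61 cluster genes have a single exon, against 6 of the 12 replacement variants.

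Both libraries came from preadipocytes of the interscapular brown adipose tissue of newborn C57BL/6 mice (C57BL/6J in the study's methods), grown in DMEM with 20% FBS, and each stage gave 1 library. Before induction the cells were kept in differentiation medium, in which FBS was 10%, T3 1 nM and insulin 0.1 μM. At day 0, indomethacin (0.125 mM), dexamethasone (2 μg/ml) and IBMX (0.5 mM) were added for 2 days, after which the D7 cells were returned to differentiation medium alone. The labels call the cells primary cultures, whereas the study's methods describe immortalization with large T, a viral protein known to bind Rb and p53. The methods also give other concentrations of serum, insulin and dexamethasone than the labels quoted here, and do not state whether cells of several animals were pooled.

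Histones package DNA into nucleosomes, which are built from H2A, H2B, H3 and H4, with H1 as the linker histone. Replication-dependent genes supply most of the histone made in S phase, and their mRNAs are known to end at a conserved stem-loop instead of a poly(A) tail, which the stem-loop binding protein SLBP recognizes. Some of these genes are also known to yield polyadenylated mRNAs. Most replacement variants are made throughout the cell cycle from ordinary polyadenylated mRNAs, and take the place of the canonical histones at particular sites of chromatin.

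The stem-loop was looked for in the GENCODE M21 transcripts of the members, since it marks the RNAs that lack a poly(A) tail. The search used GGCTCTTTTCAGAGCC, the most common 16-base word of cluster transcripts whose first and last 6 bases can pair, on the strand of the transcript and with at most 2 letters different. It was found in 38 of 66 cluster genes with a transcript and in 0 of 12 replacement variants. Forms with more than 2 letters different are missed, and the form of H4 genes below already differs in 2. The count of 0 therefore does not show that replacement variants lack a stem-loop. Some cluster transcripts without it, such as those of Hist1h2ai, Hist1h2bl and Hist1h4k, are annotated no longer than the coding sequence. A stem-loop after the coding sequence could not be found in these, so its absence here does not mean that the gene lacks one. Among all 22496 rows with a transcript, 0.369% held the stem-loop, and among the 22418 of them that are no member, 0.201%. As the word was picked from cluster transcripts, its higher share there follows in part from that choice. The form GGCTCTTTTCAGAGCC was present in 23 genes and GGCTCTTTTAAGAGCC in 6, while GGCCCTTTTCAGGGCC was found in 7 genes, all of the H4 family. The other 2 genes carried forms of their own. The stem-loops below are those of genes described in the results, together with Hist1h3g, which has one of those 2 forms, written 5′ to 3′ with the stem-loop in capitals and up to 5 bases on each side (GRCm38/mm10).
Hist1h1c (chr13:23739507-23739532, + strand): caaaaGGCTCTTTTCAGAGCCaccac
Hist1h1e (chr13:23621777-23621802, - strand): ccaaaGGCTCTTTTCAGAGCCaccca
Hist1h3c (chr13:23745042-23745067, - strand): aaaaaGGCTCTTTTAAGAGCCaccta
Hist1h3g (chr13:23535884-23535909, + strand): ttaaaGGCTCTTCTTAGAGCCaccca
Hist1h4h (chr13:23531453-23531478, + strand): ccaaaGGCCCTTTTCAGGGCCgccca
Hist1h4m (chr13:21812124-21812147, + strand): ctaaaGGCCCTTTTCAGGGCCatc
Hist2h3c1 (chr3:96247322-96247347, + strand): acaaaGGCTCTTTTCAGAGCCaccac
Hist3h2a (chr11:58955167-58955192, + strand): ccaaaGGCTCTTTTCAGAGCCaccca

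Many of these transcripts do not end near the stem-loop in the annotation. Of the 38 stem-loops, 19 are followed by at least 100 annotated bases, among them 840 bases in Hist1h1c, 1153 in Hist1h1e, 1162 in Hist2h3c1 and 1643 in Hist3h2a. In Hist1h4h, 46 bases follow, and the transcript carries a poly(A) signal within its last 50 bases. The 19 genes with at least 100 bases after the stem-loop had median FPKM values of 1.40 (D0) and 1.43 (D7), and 13 of them reached FPKM 1 in a library. In the 19 genes with fewer bases after it, the medians were 0.317 and 0.184, 6 reached FPKM 1, and 7 were listed at 0 in both libraries. A poly(A) signal was present within the last 50 bases of 17 cluster transcripts and of 10 replacement variants. Of those 17 cluster genes, 4 reached FPKM 10, against 2 of the 49 cluster genes without the signal. These are descriptions of the annotation beside the levels, and they are not independent, since the annotated ends of a transcript rest on cDNAs that had been seen in cells.

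**Figure D1:**
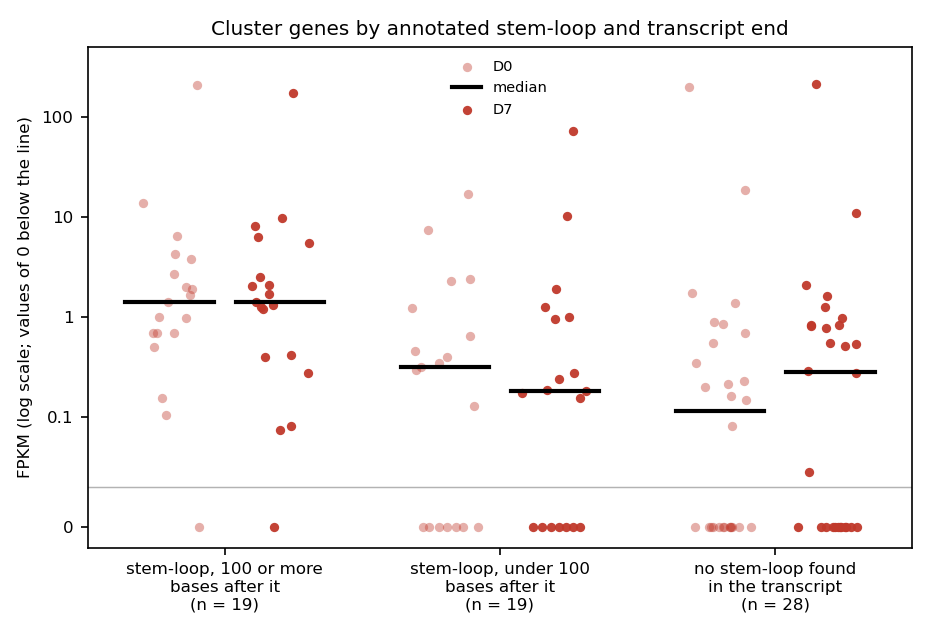
FPKM (log scale) of the 66 cluster genes with an annotated transcript at D0 (pale) and D7 (dark), grouped by whether a stem-loop was found and by the number of bases after it. The group in which none was found includes transcripts annotated no longer than the coding sequence. Groups follow the annotated transcripts, while FPKM rests on the deposited models, some of which do not hold the stem-loop. Black bars are medians, and values of 0 lie below the grey line. In the group with 100 or more bases after the stem-loop the medians are 1.40 and 1.43, and 0 of 19 genes are at 0 in both libraries.

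The values are FPKM, fragments per kilobase of gene model, scaled to the fragments of the library. Low values of genes with a single exon were whole multiples of 1 fragment, within a tolerance of 0.1, in 98.5% of 136 values at D0 and 99.2% of 129 values at D7. The denominators recovered from them were 21460000 fragments at D0 and 18250000 at D7. Each ratio of D7 to D0 below is followed by an exact 95% interval computed from these fragments, which covers counting error only and compares the 2 libraries, not the stages, since no replicate was sequenced. A gene was called changed at 2.0-fold or more. A scaling of each library by its median, with values under 0.01 set to 0.01, moved the median log2 ratio of all genes by -0.35 and turned the direction of several small changes, given beside their values. In bulk RNA, fewer cells of a type and less RNA per cell cannot be told apart.

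The labelled stages were checked against marker genes. Of 8 adipocyte markers, 6 were above 0 in both libraries and all 6 were at least 2.0-fold higher at D7, while Ucp1 and Cidea were listed at 0 at D0. Their summed FPKM was 81.6 at D0 and 17738 at D7. Other markers also moved. All 5 macrophage markers were at least 2.0-fold higher at D7, with sums of 128 and 389. Of 5 preadipocyte markers, 2 were higher and 1 lower. Of 4 endothelial markers, 2 were higher and 1 lower, at sums of 0.995 and 2.32, and Pecam1 had 1 fragment in each library. The skeletal muscle gene Acta1 had 45.4 FPKM at D0 and 1.73 at D7, while the other muscle markers had at most 1 fragment and both erythroid markers were listed at 0. The part of these cells in the values of histone genes was not tested.

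Replication-dependent cluster genes were mostly at low levels, and few genes held most of the signal. Of 68 genes, 42 were above 0 in both libraries, 17 were listed at 0 in both, 5 only at D0 and 4 only at D7. The 9 genes at 0 in a single library had at most 2 fragments in the other, fewer than the 3 fragments that a count of 0 allows. A total of 25 genes reached FPKM 1 in a library, 6 reached FPKM 10, and 24 had 10 or more fragments in both libraries together. The 3 highest genes held 83.6% of the summed cluster FPKM at D0 and 84.5% at D7. Hist1h1c and Hist1h2bc were among the 3 in both libraries, and the third was Hist1h4i at D0 and Hist1h4h at D7.

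Between D0 and D7, cluster genes were called about as often as genes at large. Of the 42 genes above 0 in both, 9 were at least 2.0-fold higher and 5 lower at D7, or 33.3%, against 31.7% of all 14986 genes above 0 in both libraries. By direction, 21.4% were higher and 11.9% lower, against 18.5% and 13.2% of all genes. Most of these calls rest on few fragments. In 7 of the 9 higher genes the interval included 1, with 4 to 7 fragments in both libraries together, and in all 5 lower genes it included 1, with 4 to 23 fragments. Over all cluster genes the interval lay above 1 in 5 and below 1 in 5, or 23.8%, whereas it excluded 1 in 70% of all genes. Only Hist1h4h and Hist1h1e among cluster genes had both a 2.0-fold change and an interval that excluded 1.

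**Figure D2:**
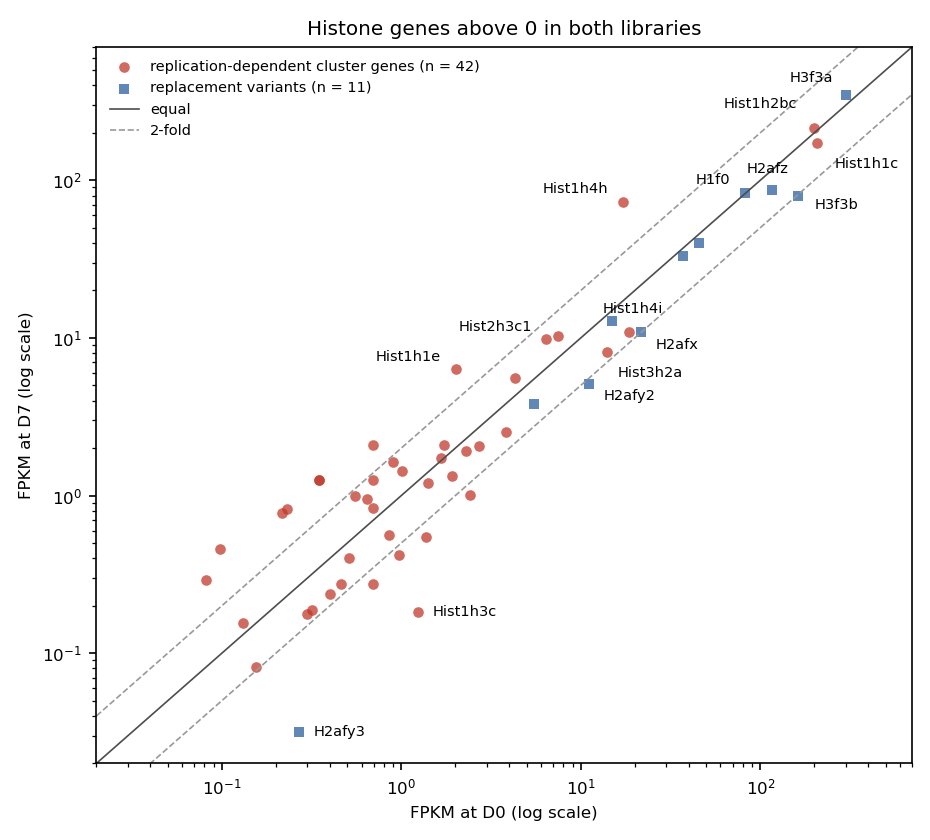
FPKM at D7 (y axis) against D0 (x axis), both on log scales, for the 53 histone genes above 0 in both libraries, with cluster genes as circles and replacement variants as squares. The solid line marks equal values and the dashed lines 2-fold. Hist1h4h and Hist1h1e lie above the upper dashed line, H3f3b and H2afy2 just below the lower one, and the scatter of cluster genes is widest under FPKM 1.

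The linker histone genes of the cluster were dominated by Hist1h1c. Its FPKM was 208 before and 172 after differentiation, a ratio of 0.828 (0.796 to 0.861), and it held 97.4% and 94.9% of the summed FPKM of the 6 cluster H1 genes. Hist1h1e was at 2.01 and 6.31, on 26 and 69 fragments, a ratio of 3.14 (1.98 to 5.14). In the deposited table its locus is shared with Hist1h2be, whose annotated span overlaps it on the same strand, and Hist1h2be was at 1.66 and 1.72. Hist1h1d was at 2.70 and 2.06, a ratio of 0.763 (0.591 to 0.981). Hist1h1b had 9 and 5 fragments, Hist1h1a 1 and 3, and the testis gene Hist1h1t 0 and 1. The sum of the family was 213.8 FPKM at D0 and 181.6 at D7, so that its most abundant gene was lower and a minor gene higher at D7.

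Cluster H2A genes, which encode the canonical partner of H2B, were listed at low values or at 0 except for Hist3h2a. Of 18 genes, 10 were listed at 0 in both libraries and 7 were above 0 in both. Among the 9 of those 10 with a transcript, 6 had under 50% of their 90-base windows unique, and the median was 11.5%, so the split of reads among copies is uncertain. Hist3h2a was at 14.0 and 8.08 FPKM, a ratio of 0.578 (0.497 to 0.670), and held 70.2% and 63.2% of the family. The annotated gene overlaps Trim17 on the same strand, so reads of the overlap cannot be assigned with certainty. Hist1h2ac was at 1.91 and 1.33, a ratio of 0.694 (0.490 to 0.975). Hist1h2ab had 17 and 6 fragments, and Hist1h2ae 11 and 4, at ratios of 0.419 and 0.430 with intervals that included 1. The family sum was 19.9 FPKM at D0 and 12.8 at D7.

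Cluster H2B was likewise carried by a single gene. Hist1h2bc was at 199 FPKM in the D0 and 213 in the D7 library, a ratio of 1.07 (1.02 to 1.12) that becomes 0.837 under scaling by the library median, and it held 94.7% and 95.3% of the sum of 19 genes. It is annotated with 2 exons, and no stem-loop was found in its transcript. Hist2h2be was at 0.897 and 1.64, on 47 and 73 fragments, a ratio of 1.83 (1.25 to 2.70). Hist1h2bg was at 3.85 and 2.53 and Hist1h2bj at 2.30 and 1.92, with intervals that included 1. So did the interval of Hist1h2be, whose ratio of 1.04 becomes 0.814 under that scaling. The sum was 210.5 FPKM at D0 and 223.6 at D7, a ratio that turns from 1.06 to 0.832 under that scaling, and without Hist1h2bc the other genes of the family had a ratio of sums of 0.937.

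Among cluster H3 genes, the Hist2 copies led. Hist2h3c1 was at 6.42 FPKM in the D0 and 9.83 in the D7 library, a ratio of 1.53 (1.28 to 1.83). All of its 90-base windows, the length of a read, also occur in other transcripts, mainly in Gm20634, which overlaps it on the same strand. Hist2h3c2 was at 4.32 and 5.55, a ratio of 1.29 (0.934 to 1.77). The 9 cluster H3 genes of the Hist1 cluster each had at most 9 fragments in a library. Of these, Hist1h3d had 7 and 5 fragments, Hist1h3e 5 and 6, and Hist1h3c 8 and 1, the last at a ratio of 0.148 (0.0033 to 1.11). The family sum was 17.3 FPKM at D0 and 19.7 at D7, which turns to a ratio of 0.892 under scaling by the library median.

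The H4 family had the largest ratio of summed FPKM among the 5 cluster families, and its leading copy differed between the libraries. Under scaling by the library median, the H4 ratio is 1.71 and that of H2A, at 0.503, is farther from 1. No H4 replacement variant is among the members, and H4 genes are known to encode the same or nearly the same protein. Hist1h4h, on chr13:23531050-23531519, was at 17.1 FPKM at D0 and 73.1 at D7, on 110 and 395 fragments, a ratio of 4.26 (3.44 to 5.32). Hist1h4i, on chr13:22040636-22041362, was at 18.5 and 11.0, on 142 and 71 fragments, a ratio of 0.593 (0.439 to 0.794). The 2 genes were thus nearly equal at D0, with Hist1h4h at 0.927 times Hist1h4i, and 6.67 times it at D7, a comparison within each library that no scaling changes. Hist1h4h made up 35.5% of the summed H4 FPKM at D0 and 69.6% at D7, and Hist1h4i 38.3% and 10.4%.

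Hist1h4m, the next H4 gene, was at 7.42 FPKM in the D0 and 10.3 in the D7 library, a ratio of 1.39 (0.869 to 2.23). Only 11.5% of its 90-base windows are unique among transcripts, and its coding sequence equals that of Hist1h4n, which was listed at 0 in both libraries, so the split between these copies is uncertain. For Hist1h4h and Hist1h4i, 59.8% and 75.2% of windows were unique, and their coding sequences share 299 of 312 bases. Of the other 9 H4 genes above 0 in either library, 7 have models of coding length alone and had 13 fragments together at D0 and 23 at D7. Among these, Hist1h4a had 5 fragments in each library, a ratio of 1.20 (0.277 to 5.22) that becomes 0.942 under scaling by the library median. The FPKM worth of 3 fragments in such a 312 bp model is 1.05 at D0 and 1.26 at D7. The family sum was 48.3 FPKM at D0 and 105.0 at D7, and the ratio of its shares of all fragments was 2.03 (1.76 to 2.34), on 312 and 538 fragments.

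Summed over all cluster genes, FPKM was 509.8 at D0 and 542.7 at D7. This ratio of 1.06 turns to 0.834 under scaling by the library median. Counted as fragments over the denominator of each library (the share ratio), without regard to gene length, it was 0.952 (0.927 to 0.978), so the sign of the total depends on the measure. Over all genes the share ratio was 1.045 and not 1, on 22693396 and 20173142 recovered fragments. These exceed the denominators, so share ratios are approximate and are to be read beside 1.045. Share ratios by family were 0.834 (0.803 to 0.867) for H1, 0.601 (0.526 to 0.686) for H2A, 1.07 (1.02 to 1.12) for H2B and 1.36 (1.18 to 1.58) for H3. The H2B interval includes the value of all genes. The ratios of the H4 and H2A sums therefore lay on opposite sides of 1, while that of H2B stayed within a small distance of 1. Of the 312 and 538 H4 fragments at D0 and D7, Hist1h4h alone held 110 and 395. Hist1h4i had 142 and 71, so the H4 genes did not all move with their sum. For the 62 genes under FPKM 10, 887 and 878 fragments gave a share ratio of 1.16 (1.06 to 1.28).

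**Figure D3:**
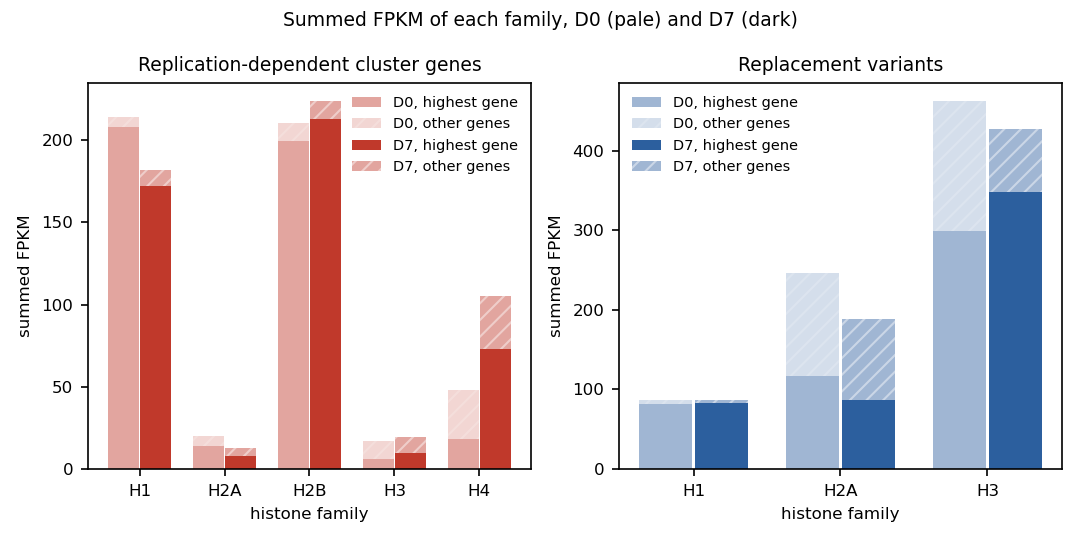
Summed FPKM (y axis, from 0) of each histone family (x axis) at D0 (pale) and D7 (dark), for cluster genes on the left and replacement variants on the right. The solid part of a bar is the gene with the highest value in that library and the hatched part all others. Cluster H4 goes from 48.3 to 105.0, with Hist1h4i highest at D0 and Hist1h4h at D7, while H1 and H2B rest almost wholly on a single gene each.

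Replacement variants were well expressed and mostly lower at D7. Of 12 genes, 11 were above 0 in both libraries, and H2afb1 was listed at 0 in both. At least 2.0-fold lower were 3 genes, or 27.3%, against 13.2% of all genes, and 0 were higher. Intervals lay below 1 in 9 genes, above 1 in H3f3a, and included 1 in H1f0, so that 90.9% excluded 1, against 70% of all genes. These shares are not alike in depth, since counting intervals narrow with more fragments. Over rows with values, the median FPKM at D0 was 29.2 in the variants and 0.730 in all genes. The median unique share of 90-base windows was 99.9%, against 54.3% in cluster genes. H2afy3, 1 of the 3 lower genes and a noncoding row, rests on 10 fragments at D0 and 1 at D7, with an interval of 0.0027 to 0.828. The others, H2afy2 and H3f3b, lie near the threshold, at ratios of 0.463 and 0.485.

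H3f3a and H3f3b encode the same H3.3 protein, which is placed in chromatin outside replication by HIRA and by DAXX with ATRX, and their ratios lay on opposite sides of 1. H3f3a was at 299 FPKM in the D0 and 348 in the D7 library, a ratio of 1.16 (1.14 to 1.19) that becomes 0.912 under scaling by the library median. H3f3b was at 163 and 79.0, a ratio of 0.485 (0.463 to 0.507). Within a library, H3f3a was 1.83 times H3f3b at D0 and 4.40 times it at D7, which is free of any scaling. Their sum was 461.7 at D0 and 426.7 at D7, and it made up 96.4% and 95.6% of all H3 FPKM.

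The promoters of this pair are shown because their genes encode a single protein and the ratio between them rose from D0 to D7. They run 5′ to 3′ from 250 bases before to 50 bases after the annotated start (RefSeq, GRCm38.p6), with matches on either strand in capitals. The motifs searched were the TATA box as TATAAA, the CCAAT box as CCAAT and the octamer as ATTTGCAT.
H3f3a (chr1:180813556-180813855, - strand): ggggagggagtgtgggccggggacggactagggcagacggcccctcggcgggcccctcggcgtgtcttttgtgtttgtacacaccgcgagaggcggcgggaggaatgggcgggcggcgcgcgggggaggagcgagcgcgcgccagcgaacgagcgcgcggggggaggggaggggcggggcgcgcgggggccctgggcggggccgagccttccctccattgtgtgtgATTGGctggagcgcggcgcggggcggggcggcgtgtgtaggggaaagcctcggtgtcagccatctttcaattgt
H3f3b (chr11:116024455-116024754, - strand): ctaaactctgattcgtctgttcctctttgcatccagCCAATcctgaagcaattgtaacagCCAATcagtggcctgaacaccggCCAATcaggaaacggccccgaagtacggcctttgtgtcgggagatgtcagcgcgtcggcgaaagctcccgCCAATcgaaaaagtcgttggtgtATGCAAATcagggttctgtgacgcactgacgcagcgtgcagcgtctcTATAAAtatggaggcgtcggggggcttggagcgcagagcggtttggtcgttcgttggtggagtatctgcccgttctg

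The H3f3b window holds 4 CCAAT matches, 1 match to the octamer and a TATAAA that begins 27 bases before the start, and its GC content is 55%. That of H3f3a holds 1 CCAAT match and neither of the others, at a GC content of 74%. Of 61 cluster genes with a promoter in the table, 85.2% had CCAAT, 57.4% TATAAA and 21.3% the octamer, against 37.4%, 13.6% and 1.74% of all 32851 promoters. CCAAT was present in all 49 promoters of cluster H1, H2A, H2B and H3 genes and in 3 of 12 of H4. The octamer was found in 7 of 17 H2A and 6 of 16 H2B promoters and in 0 of the H1, H3 and H4 ones. All 6 H2B matches read on the strand of the gene, and all 7 H2A matches on the opposite strand. Windows of some H2A and H2B genes overlap, as those of Hist1h2aa and Hist1h2ba do, so the same match can be counted for both genes. Of the 10 replacement variants with a promoter, H3f3b was the only one with TATAAA or the octamer. The median GC content was 45.3% in cluster genes and 68.5% in replacement variants. In all, 71 of 80 members were matched, matches of different motifs did not overlap in any of them, and a match is a description of letters, not of a site.

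The H2A variants were lower at D7 in all 7 genes above 0. H2afz, the variant of promoters and regulatory elements, was at 116 FPKM in the D0 and 86.7 in the D7 library, a ratio of 0.745 (0.696 to 0.797). Of its windows 69.6% were unique, and the others recur in Gm8203 and Gm13007. H2afx, whose product is phosphorylated at DNA breaks, was at 21.6 and 10.8, a ratio of 0.502 (0.429 to 0.586), just short of 2.0-fold, and it passed 2.0-fold under 4 of 7 other scalings or pseudocounts. The macroH2A genes H2afy and H2afy2 differed in size of change. H2afy was at 45.5 and 40.1, a ratio of 0.881 (0.819 to 0.948), and H2afy2 at 11.1 and 5.13, a ratio of 0.463 (0.389 to 0.550). H2afy2 shares its row's locus with Aifm2 and Mir5108 on the opposite strand. The study's methods describe degradation of the second cDNA strand, which keeps strand in the library, but whether strand was used in counting is not given in the sources used here. H2afv was at 15.0 and 12.8, a ratio of 0.854 (0.740 to 0.984), and H2afj at 36.9 and 33.2, a ratio of 0.901 (0.829 to 0.980). H2afy3 is a noncoding row within the locus of Pvt1, at 0.269 and 0.0317. Summed, the H2A variants were at 246.7 and 188.8 FPKM and made up 92.5% and 93.7% of all H2A FPKM.

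Of the replication-independent linker histones, H1f0, known for its accumulation in cells that have stopped dividing, was at 81.8 FPKM at D0 and 83.3 at D7, and the ratio of 1.02 had an interval that included 1 (0.971 to 1.07). The ratio becomes 0.798 under scaling by the library median. H1fx was at 5.49 and 3.80, a ratio of 0.692 (0.496 to 0.958). With Hist1h1c lower and H1f0 near its former level, replacement genes made up 29.0% of all H1 FPKM at D0 and 32.4% at D7.

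**Figure D4:**
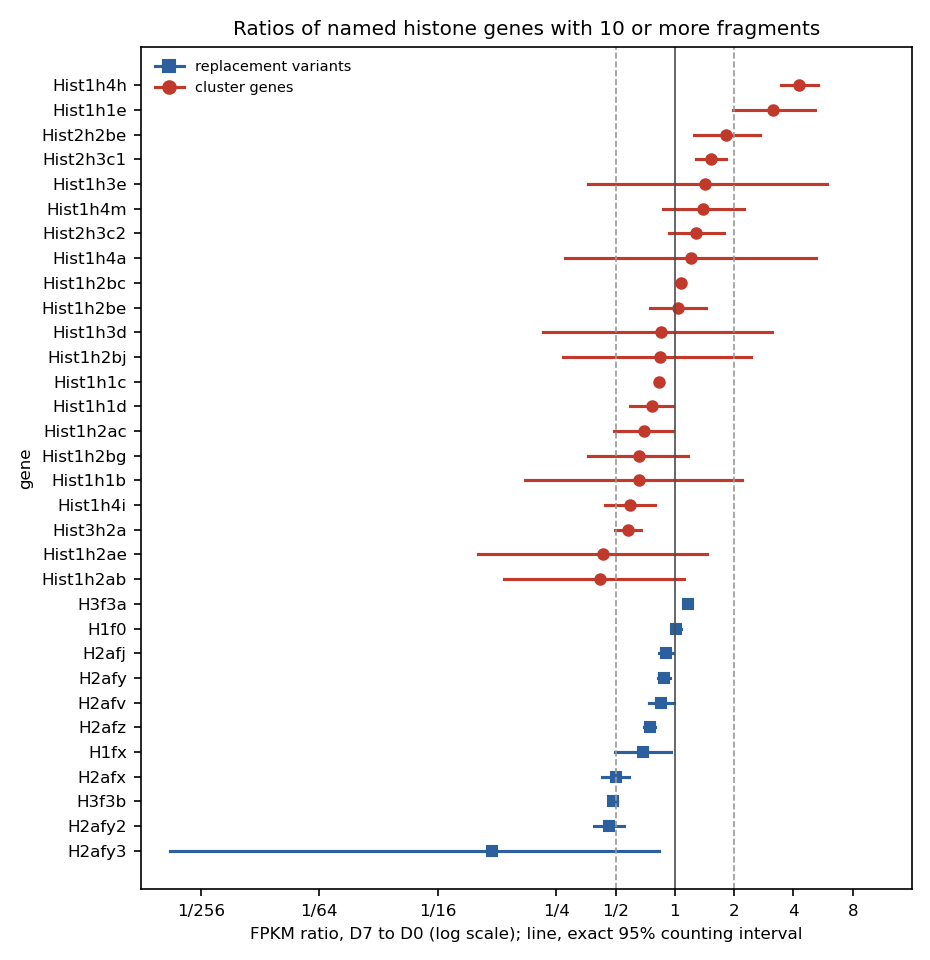
FPKM ratio of D7 to D0 (x axis, log scale) with its exact 95% counting interval for the 32 named histone genes with 10 or more fragments, 21 cluster genes as circles and 11 replacement variants as squares. The solid line marks a ratio of 1 and the dashed lines 2-fold. Hist1h4h at 4.26 and Hist1h1e at 3.14 stand to the right, and intervals of most replacement variants lie left of 1.

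Set side by side, the median log2 ratio was 0.08 in cluster genes and -0.43 in replacement variants, against 0.02 in all genes, a difference of 0.50 between the classes. The cluster median is not firm. It was -0.28 under scaling by the library median, -0.27 over genes with at least 10 fragments and -0.23 over genes with a single exon. The difference between the classes was then 0.50, 0.16 and 0.19. Replacement variants held 61.0% of all histone FPKM at D0 and 56.4% at D7. Like the shares of H1, H2A and H3 above, these are shares of FPKM in libraries described as made from mRNA fractions. Cluster RNAs without a poly(A) tail may be missing from such fractions, which was not tested, so the shares need not be those of the cells.

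Genes that handle histones mostly had ratios below 1, but were called lower no more often than genes at large. A list of 35 such genes was used, which also held the histone gene Cenpa. Values were given for 34, and 26 of the 34 had a ratio below 1, against 49.4% of all genes. At least 2.0-fold lower were 4, or 11.8%, against 13.2% of all genes, and 0 were higher, against 18.5%. Cenpa, 1 of these 4, is the centromeric H3 and so does not itself handle histones. It was at 7.56 FPKM in the D0 and 1.80 in the D7 library, a ratio of 0.238 (0.167 to 0.333). Chaf1a and Chaf1b, subunits of the chaperone CAF-1 that loads new H3 and H4 behind the replication fork, had ratios of 0.428 (0.368 to 0.496) and 0.270 (0.175 to 0.403). Ipo4, an importin that carries new H3 and H4 to the nucleus, had a ratio of 0.458 (0.430 to 0.487). The median log2 ratio of the list was -0.27.

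Slbp, whose product binds the stem-loop shown above, was at 18.0 FPKM in the D0 and 12.4 in the D7 library, a ratio of 0.691 (0.608 to 0.784). Npat, the activator of cluster genes, had a ratio of 0.838 (0.729 to 0.963). Among 9 genes for 3′ end processing and turnover, 0 passed 2.0-fold and 8 had a ratio below 1, against 31.7% and 49.4% of all genes. Zfp473 had 10 and 7 fragments. Of the chaperones of H3.3, Hira had a ratio of 0.865 (0.767 to 0.974) and Daxx 0.834 (0.746 to 0.931), whereas Atrx was at 6.89 and 12.3, a ratio of 1.78 (1.67 to 1.90). Asf1a, which hands H3 and H4 to other chaperones, was at 4.98 and 8.43, a ratio of 1.69 (1.42 to 2.03), and its paralog Asf1b had a ratio of 1.27 (0.993 to 1.63).

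Genes of S phase and mitosis were lower at D7 almost throughout. Of 30 genes on this list, 21 were at least 2.0-fold lower and 0 higher, against 13.2% and 18.5% of all genes, and 29 had a ratio below 1. The 21 genes were Aurkb, Birc5, Bub1, Ccna2, Ccnb1, Ccnb2, Cdc20, Cdc6, Cdk1, Cdt1, Mcm2, Mcm3, Mcm4, Mcm5, Mcm6, Mki67, Plk1, Rrm2, Tk1, Top2a and Tyms, with ratios of 0.106 to 0.441. Ccnb2 had a ratio of 0.106 (0.066 to 0.160), Mki67 0.258 (0.210 to 0.314), Mcm5 0.223 (0.171 to 0.288) and Pcna 0.666 (0.610 to 0.726). Gmnn was the exception, at 6.30 and 10.3 FPKM, a ratio of 1.63 (1.29 to 2.06). The list's median log2 ratio was -1.59, beside 0.08 for cluster histone genes, -0.43 for replacement variants and -0.27 for the genes that handle histones.

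**Figure D5:**
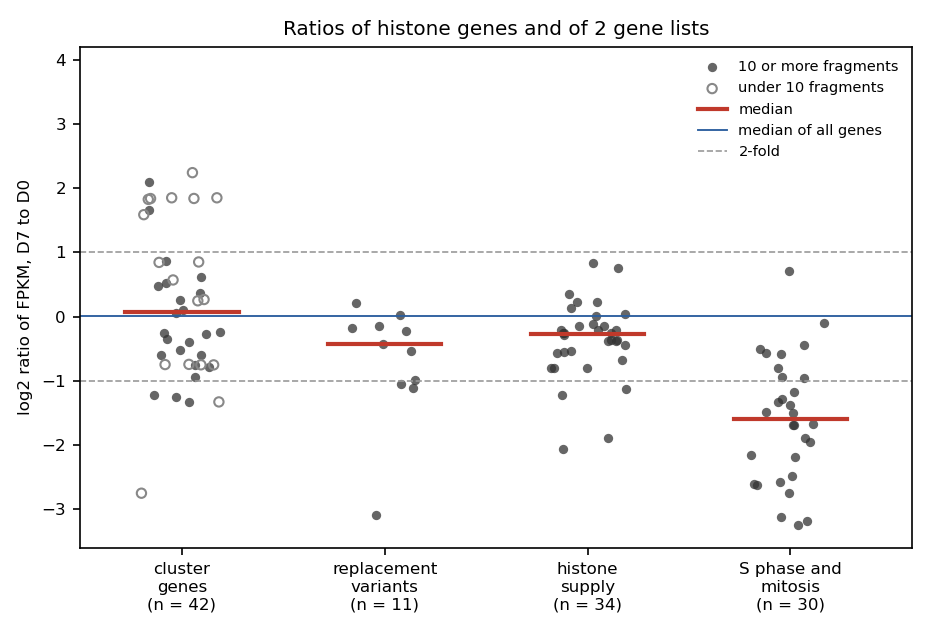
Log2 ratio of FPKM, D7 to D0 (y axis), of 42 cluster genes, 11 replacement variants, 34 genes that handle histones and 30 genes of S phase and mitosis. Each point is a gene, open where both libraries together gave under 10 fragments, red bars are medians and the blue line is the median of all genes. The S phase and mitosis list centres on -1.59, while cluster genes spread around 0.08, or -0.27 over those with at least 10 fragments.

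The study's methods describe sequencing of mRNA fractions, and RNAs known to lack a poly(A) tail were listed for comparison. Of 125 such RNAs, 112 were listed at 0 in both libraries and 5 were above 0 in both. Of the 112, 110 are snoRNAs or scaRNAs, and 103 of the 109 with a known length have models no longer than the 178.5 bp taken off each length at D0, so their zeros say nothing of poly(A). Malat1, a nuclear noncoding RNA with a triple-helix end, was at 72.7 FPKM at D0 and 103 at D7, and Neat1, which also has a polyadenylated isoform, at 53.8 and 135. Rpph1, the RNA of RNase P, had 3 fragments and 1. How much of each cluster gene's signal came from polyadenylated RNA was not tested.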

How the data were processed

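RNA-Seq was analysed for brown preadipocytes (D0) and brown adipocytes (D7), with 1 library per stage. The authors filtered reads, removed duplicates and rRNA reads, used SOAP2 to align the rest to the genome (mm10) and gene sequences, and deposited the levels as FPKM. The submitters' processing notes name Bowtie2 and mm10. The deposited FPKM values were used without pseudocount or rescaling.

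The fragments behind a value were worked out on single-exon genes over 300 bp with annotated ends within 500 bp of those deposited, from values under 12 fragments. This gave offsets of 178.5 bp at D0 and 181.5 bp at D7. Other genes use the length of the annotated transcript, which makes their fragments approximate. The 95% intervals of ratios are Clopper-Pearson (exact). No p-value can be given with 1 library per stage. Changed meant a 2.0-fold difference or more, so a lower ratio of 0.5 or under.

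Stem-loops, poly(A) signals and 90-base windows were read from GENCODE M21 transcripts, which matched 78 of 80 members, and promoters from RefSeq (GRCm38.p6). Members and lists were chosen with earlier results of these data known. Named are all replacement variants, the 4 highest cluster genes of each family, cluster genes with a 2.0-fold change and an interval excluding 1, and list genes that passed 2.0-fold or answer a statement. Hist2h2be, Hist1h1a, Hist1h1t, Hist1h3c and Hist1h3g were chosen after their values were seen. Scripts were tested on simulated data. Software was scipy 1.17.1, pandas 2.3.3 and numpy 2.4.6 under Python 3.11.15, with plots by matplotlib 3.10.9.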

Additional observations from a re-analysis of the deposited data

How the results depend on the processing

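No paired analysis was possible because each stage has 1 library, and for the same reason no replicate could be left out. Alternatives were pseudocounts of 0.1 and 1, median centring, the upper quartile, a trimmed mean of log ratios, TPM, filters at FPKM 0.1, FPKM 1 and 10 fragments, a 4-fold threshold, and subsets of cluster genes. Scaling by the library median with values under 0.01 set to 0.01 was chosen after seeing the data. Of 236 values of classes, families and lists, 205 stayed within 1.5 times or within their interval and 31 did not. For medians this interval was taken over the genes of a group, which are not replicates, and it is wide. A cluster median of -0.28 under scaling by the library median, against 0.08, counted as within it. The 205 therefore says little of how firm the medians are. Under the 7 scalings and pseudocounts no called gene among the named histone genes changed direction, while other called genes were not rerun one by one. With a pseudocount of 1, cluster genes called were 2 higher and 0 lower, replacement variants 1 lower, RNAs without poly(A) 0 lower, and the S phase and mitosis median was -1.14. At FPKM 1 the cluster counts were 5 and 3, and with 10 fragments 2 and 3; both filters left 0 RNAs without poly(A) lower. At 4-fold they were 2 and 1, with 1 replacement variant, 1 gene of the list of genes that handle histones (Cenpa) and 10 genes of S phase and mitosis lower. Among genes with at least 50% of windows in no other histone transcript, 2 cluster genes were lower. Scaling by the library median gave 12 cluster genes lower, 8 genes that handle histones lower with a median of -0.62, 0 RNAs without poly(A) higher, and ratios of summed FPKM of 0.834 for cluster genes, 0.692 for replacement variants, 0.665 for H1, 0.503 for H2A, 0.832 for H2B, 0.892 for H3 and 1.71 for H4. The replacement ratio was 0.866 with TPM, against 0.883. The H2B ratio was 0.917 over single-exon genes and 0.937 without Hist1h2bc, against 1.06. Scaling by the library median moves the log2 ratio of every gene by -0.35. The share of all genes called was counted only in the main setting. Counts under other settings therefore cannot be set beside genes at large. The cause of these shifts was not tested beyond what each setting removes. Depth limits 44 of 68 cluster genes, which had under 10 fragments in both libraries together.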
